A study of Homo sapiens with 54 samples.

Results

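MDA-MB-231 cells, an established human line from a triple-negative breast cancer, were treated for 48 h with Compound Kushen Injection (CKI) from which macrozamin had been removed (N-Mac). CKI is an aqueous medicine prepared from Sophora flavescens and Heterosmilax chinensis. N-Mac was compared with 3 other mixtures that each lacked a single compound, namely N-methylcytisine (N-Nme), oxymatrine (N-Omt) or trifolirhizin (N-Tri). The members were the 3 N-Mac libraries and the 9 libraries of the other mixtures, 12 of the 54 RNA-seq libraries in all, taken by their labels at 48 h in batch 2. All 4 mixtures were given at the equivalent of 2 mg/ml CKI and kept every other component, so that the comparison set aside what the single removals shared. Whole CKI and untreated cells (UT) of the same batch and time, 3 libraries each, gave the reference levels. The labels call the replicates biological but do not say that they were separate cultures, so p-values measure only the spread between these libraries.

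Macrozamin is an azoxy glycoside, a sugar-linked form of methylazoxymethanol, a DNA-alkylating toxin known from cycads. N-methylcytisine and oxymatrine are quinolizidine-type alkaloids, and trifolirhizin is a glucoside of a pterocarpan. Cytokines and other targets of NF-κB are described first. NF-κB is a transcription factor held in the cytoplasm by inhibitors such as the product of NFKBIA. Once released it induces chemokines (CXCL8, CXCL1), interleukins (IL6) and colony-stimulating factors (CSF2, CSF3), together with NFKBIA and TNFAIP3, which shut the pathway off again. MDA-MB-231 cells are known for high basal activity of this pathway.

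The 150 bases before the start of 5 cytokine genes and of LCN2 are shown because these genes were all higher in N-Mac. The sequences are from RefSeq (GRCh38.p14) and are read 5′ to 3′ in the direction of the gene. Capitals mark a match to the NF-κB consensus or to the AP-1 motif TGACTCA. The windows are CXCL1 at chr4:73869243-73869392 (+), CXCL2 at chr4:74099196-74099345 (-), CXCL3 at chr4:74038690-74038839 (-), CXCL8 at chr4:73740419-73740568 (+), IL6 at chr7:22727050-22727199 (+) and LCN2 at chr9:128149303-128149452 (+).
CXCL1: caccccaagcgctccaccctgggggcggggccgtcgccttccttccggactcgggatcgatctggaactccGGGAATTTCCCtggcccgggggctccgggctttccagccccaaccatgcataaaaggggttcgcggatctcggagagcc
CXCL2: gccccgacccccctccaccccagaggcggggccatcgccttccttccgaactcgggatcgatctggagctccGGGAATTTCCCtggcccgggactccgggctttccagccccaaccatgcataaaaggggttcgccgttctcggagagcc
CXCL3: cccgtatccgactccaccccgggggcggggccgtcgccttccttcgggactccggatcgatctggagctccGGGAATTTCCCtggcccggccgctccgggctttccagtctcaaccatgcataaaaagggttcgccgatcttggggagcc
CXCL8: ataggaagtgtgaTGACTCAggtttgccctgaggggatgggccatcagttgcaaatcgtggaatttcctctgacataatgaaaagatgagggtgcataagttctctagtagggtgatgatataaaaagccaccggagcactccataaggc
IL6: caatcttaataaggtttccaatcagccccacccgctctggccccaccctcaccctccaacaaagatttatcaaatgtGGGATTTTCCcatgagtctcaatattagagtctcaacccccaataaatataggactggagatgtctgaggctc
LCN2: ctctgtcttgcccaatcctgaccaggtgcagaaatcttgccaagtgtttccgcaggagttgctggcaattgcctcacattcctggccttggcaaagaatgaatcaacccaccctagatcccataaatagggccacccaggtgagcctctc

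The windows of CXCL1 and CXCL2 were 88.7% identical, those of CXCL1 and CXCL3 88.1%, and those of CXCL2 and CXCL3 86.1%. The window of CXCL1 was 45% identical to that of CXCL8. In the 250 bases before the start, on either strand, the NF-κB consensus was present in 8 of the 15 genes of the group with a promoter sequence (53.3%) and in 5.21% of all 35116 promoters. It was present in CXCL1, CXCL2, CXCL3, IL6, CCL20, TNFAIP3, NFKBIA and BIRC3. The AP-1 motif was present in 3 of the 15 (20%), namely CXCL8, IL1A and IL11, and in 4.2% of all promoters. The NF-κB motif was added after the expression values were seen, a match is not evidence of binding, and the list was named for this factor.

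Total counts were between 17673537 and 24603876 in the 12 libraries (median 22107318.5), and 14803 of the 27978 genes had enough counts for a test. The root mean square log2 difference over genes was 0.313 between N-Mac and N-Tri, 0.32 between N-Mac and N-Nme and 0.567 between N-Mac and N-Omt, so that N-Omt stood apart from the other mixtures. N-Mac lay 0.759 from CKI and 0.855 from untreated cells. The summed level of 6 genes that are high in MDA-MB-231 cells, VIM and CD44 among them, was between 3073 and 3091 CPM (counts scaled to the library size after TMM adjustment) in N-Mac and between 2898 and 3552 CPM in the other mixtures. The defining luminal markers ESR1 and PGR, the leukocyte markers PTPRC and CD3E and the endothelial marker CDH5 were at or near 0 in the 12 libraries, but other genes of these lists were expressed. The summed luminal list, of which 7 of 9 genes were tested, was between 577 and 665 CPM in N-Mac, between 626 and 788 in the other mixtures and between 2086 and 2236 in untreated cells. The summed endothelial list was between 22.9 and 25.8 CPM in N-Mac, between 18.3 and 25.2 in the other mixtures and between 9.09 and 10.6 in untreated cells. In bulk RNA, fewer cells of a kind and less RNA per cell cannot be told apart.

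Against the mean of the other 3 mixtures, 5763 of 14803 genes (38.9%) were differentially expressed (DE) in N-Mac, by the quasi-likelihood test of edgeR at a Benjamini-Hochberg adjusted p under 0.05. Of these, 3288 (22.2%) were higher in N-Mac and 2475 (16.7%) were lower. The differences were small for most genes, with a median absolute log2 fold change of 0.26 among the DE genes, and 136 genes (0.919%) were at least 2-fold higher and 45 (0.304%) at least 2-fold lower. N-Mac did not have the most DE genes against its companions, since the same contrast gave 5724 genes for N-Tri (38.7%), 6627 for N-Nme (44.8%) and 9903 for N-Omt (66.9%).

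In the 3 pairs, which share the N-Mac libraries, 4566 genes were DE against N-Nme (30.8%), 8747 against N-Omt (59.1%) and 5547 against N-Tri (37.5%). With p-values adjusted over all 44409 tests of the 3 pairs together, the numbers were 4979, 8433 and 5706. A gene was DE in the same direction against the mean and against each mixture in 530 cases higher in N-Mac (3.58%) and in 498 cases lower (3.36%). In 653 genes (4.41%) every N-Mac library was above all 9 others, and in 669 genes (4.52%) every N-Mac library was below them.

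Cytokines and NF-κB targets were higher in N-Mac than in the other mixtures. Of the 17 genes on the list, 16 were DE and higher against the mean and none was lower, where 22.2% of all genes tested were higher. The median log2 fold change of the list was 0.81, against 0.022 over all genes. With the 9 comparator libraries taken as 1 group, 525 genes were DE in all and 9 of the list. In 14 of the 17 genes every N-Mac library was above all 9 others (4.41% of all genes). The summed level of the list was between 3937 and 4198 CPM in N-Mac, between 1722 and 1833 in N-Nme, between 1909 and 1950 in N-Omt and between 2291 and 2571 in N-Tri. It was between 596 and 608 CPM in CKI and between 579.7 and 644 in untreated cells, so that all 4 mixtures stood above whole CKI and N-Mac stood highest. A large part of the sum in N-Mac was CXCL8, which was lower in CKI than in untreated cells although their sums overlapped.

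CXCL8 encodes interleukin-8, a chemokine that attracts neutrophils. Its level was 2272, 2379 and 2272 CPM in the 3 N-Mac libraries, against a lowest value of 686, a median of 857 and a highest value of 1397 CPM in the 9 others. The groups did not overlap, and the log2 fold change against the mean was 1.34 ± 0.043 (SE; adjusted p = 9.83e-20, edgeR). The mean level was 2308 ± 62.0 CPM (SD, n = 3) in N-Mac, 842 ± 42.8 in N-Nme, 708 ± 22.1 in N-Omt and 1276 ± 105 in N-Tri (SD, n = 3 each), and 21.5 ± 1.55 CPM in CKI and 90.9 ± 23.5 in untreated cells (SD, n = 3 each). N-Mac was higher by 1.46 on the log2 scale against N-Nme, 1.71 against N-Omt and 0.85 against N-Tri.

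CXCL1 and CXCL2, which signal through the same receptor as CXCL8, rose with it. CXCL1 was at 44.7, 49.9 and 48.2 CPM in N-Mac and between 13.3 and 23.9 CPM in the other mixtures, with a log2 fold change of 1.51 ± 0.054 (SE). CXCL2 was at 140.9, 153.8 and 143.2 CPM in N-Mac and between 34.7 and 95.1 CPM in the others, with a log2 fold change of 1.38 ± 0.051 (SE). CXCL3 was higher by 0.62 on the same scale, and no N-Mac library overlapped the others in any of these genes (4.41% of all genes). CXCL1, CXCL2 and CXCL3 are close copies of each other, and the split of reads between them is uncertain.

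IL6, a cytokine that signals through STAT3, was at 178.9, 183.2 and 176.4 CPM in N-Mac, against a median of 62.3 CPM and a range from 34.6 to 106.9 CPM in the others. Its log2 fold change was 1.51 ± 0.041 against the mean (SE), 2.26 against N-Nme, 0.79 against N-Omt and 1.49 against N-Tri, so that its closest companion was N-Omt, where that of CXCL8 was N-Tri. CSF3, which encodes granulocyte colony-stimulating factor, had the largest fold of the genes with at least 5 CPM that were higher against every mixture. Its level was 16.5, 18.0 and 15.3 CPM in N-Mac and between 2.94 and 4.41 CPM in the others, and the log2 fold change was 2.23 ± 0.087 against the mean (SE) and 2.35, 2.19 and 2.14 against N-Nme, N-Omt and N-Tri. CSF2, the granulocyte-macrophage factor, was at 58.8, 52.2 and 45.04 CPM in N-Mac and between 14.7 and 38.1 CPM in the others, a log2 fold change of 1.22 ± 0.061 (SE). LCN2, the iron-binding lipocalin 2, which is not on the list, was at 72.9, 72.8 and 65.9 CPM in N-Mac and between 14.0 and 35.6 CPM in the others, a log2 fold change of 1.58 ± 0.059 (SE). The N-Mac libraries were the 3 highest of the 12 in each of these 4 genes (4.41% of all genes), which were picked for being higher against every mixture.

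**Figure D1:**
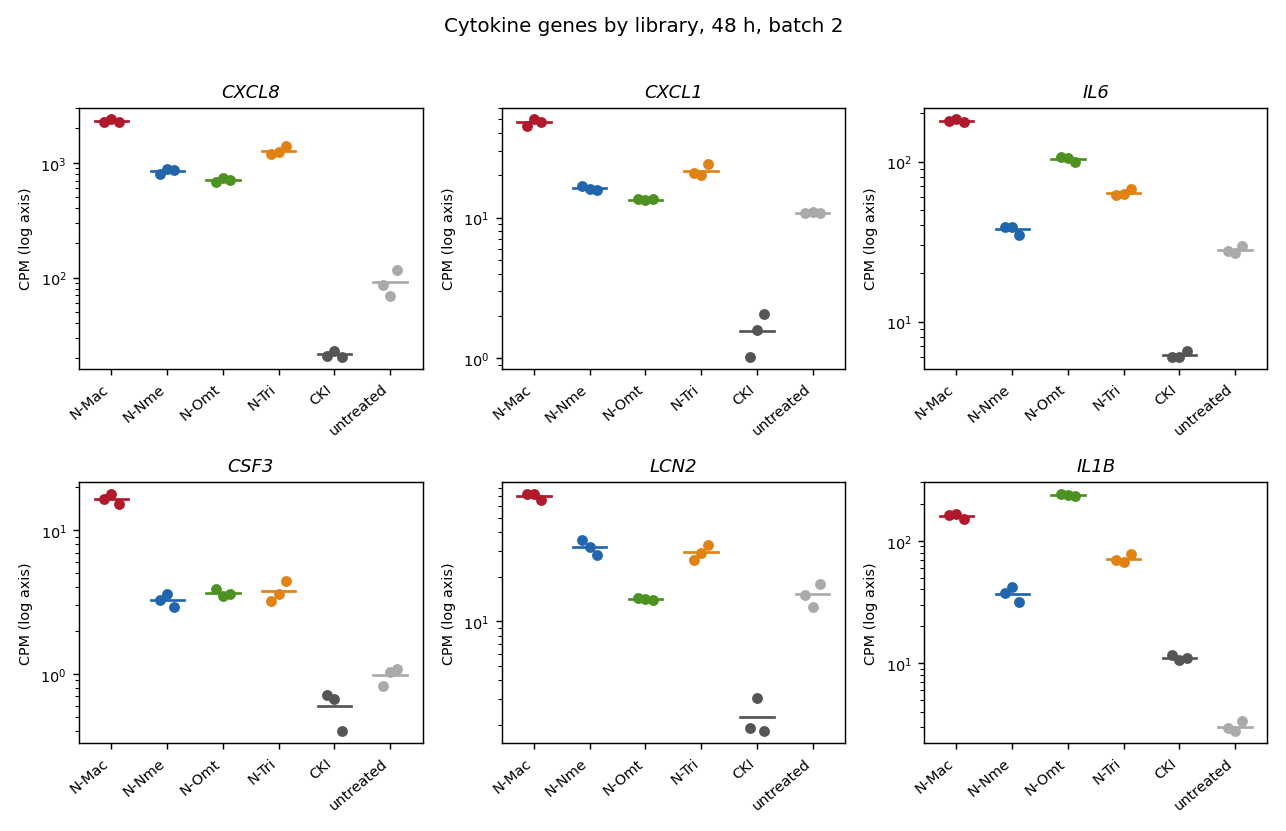
CPM on a log axis for CXCL8, CXCL1, IL6, CSF3, LCN2 and IL1B in each library of N-Mac, N-Nme, N-Omt, N-Tri, CKI and untreated cells at 48 h in batch 2. Points are libraries and lines are group means. For CXCL8 the 3 N-Mac libraries sit between 2272 and 2379 CPM, above all 9 libraries of the other mixtures, while for IL1B N-Omt sits above N-Mac.

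The remaining members were described after their values were seen. CCL20, a chemokine of lymphocytes, had a log2 fold change of 2.00 at a low level of 6.91, 6.72 and 7.14 CPM in N-Mac. The increase was 0.60 for IL1A, 0.90 for IL1B, 0.81 for IL11, 0.65 for the adhesion molecule ICAM1, 0.63 for the apoptosis inhibitor BIRC3 and 0.73 for PTGS2, which makes prostaglandins. The feedback genes NFKBIA and TNFAIP3 rose by 0.47 and 0.55. LIF was the member that was not DE against the mean, with a log2 fold change of 0.11 and an adjusted p of 0.063 (edgeR).

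Against each mixture apart, 17 of the 17 genes were higher in N-Mac than in N-Nme (15.9% of all genes), 14 were higher and 2 lower than in N-Omt (31.3% and 27.8% of all genes), and 16 were higher than in N-Tri (20.6%). The median log2 fold changes were 1.05, 0.97 and 0.60. IL1B and LIF were lower than in N-Omt, by 0.57 and 0.29 on the log2 scale, and N-Omt held the highest IL1B level of the 4 mixtures at 236 CPM. TNFAIP3 was not DE against N-Omt, with a log2 fold change of 0.0003 and a 95% interval from -0.14 to 0.14. PTGS2 was not DE against N-Tri, with a log2 fold change of 0.11 and a 95% interval from -0.013 to 0.24. The other 13 genes were higher against the mean and each mixture (3.58% of all genes).

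Markers of other cell types were measured beside these genes. The summed fibroblast markers were between 27.1 and 30.5 CPM in N-Mac, between 14.8 and 24.1 in N-Nme, between 28.9 and 37.4 in N-Omt and between 20.1 and 20.6 in N-Tri. Of the 6 tested, 3 were higher against the mean (22.2% of all genes), and 4 of the 8 on the list had a mean under 1 CPM. The fibroblast marker FAP was at or near 0. The summed leukocyte markers, between 272 and 305 CPM in N-Mac and between 175 and 386 in the other mixtures, were carried by CD68, a lysosomal protein. The highest single sum of both lists was in N-Omt, whose fibroblast range overlapped that of N-Mac, and the part of these markers in the cytokine result was not tested.

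The other genes with the largest consistent rises had a range of roles. RAD54L, which acts in homologous recombination, was at 14.1, 14.2 and 13.7 CPM in N-Mac and between 1.84 and 13.3 CPM in the others. Its log2 fold change of 1.29 ± 0.085 (SE) was unequal across the mixtures, with 2.82 against N-Omt, 0.28 against N-Nme and 0.77 against N-Tri. MB, which encodes myoglobin, rose by 1.12 ± 0.088 (SE), from a range of 4.43 to 7.99 CPM in the others to 13.1, 12.9 and 12.1 CPM. CGN, which encodes cingulin of tight junctions, rose by 1.10 ± 0.092 (SE), from a range of 4.53 to 7.60 CPM to 12.7, 12.5 and 13.8 CPM. The non-coding RNA genes LINC02154 and LOC100506178 rose by 1.23 and 1.09. All 5 had no overlap between N-Mac and the other libraries (4.41% of all genes), but they were picked for being higher against every mixture, which favours this.

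The cell cycle lists depended on which mixture N-Mac was set against. Against the mean, 19 of 20 DNA replication genes and 15 of 20 genes of mitosis and cytokinesis were higher in N-Mac and none was lower (22.2% and 16.7% of all genes). With the 9 comparator libraries as 1 group, 2 and 0 of them were DE, where 525 of all 14803 genes were. Against N-Omt alone, 19 of 20 genes of each list were higher (31.3% of all genes), with median log2 fold changes of 1.12 and 1.35. Against N-Nme, 18 of the 20 mitosis genes were lower (15% of all genes, median of the list -0.41) and none was higher, while 6 replication genes were higher and 1 was lower (median 0.14). Against N-Tri, 4 mitosis genes were higher and 2 lower (median 0.01), and 14 replication genes were higher (median 0.35), where 20.6% of all genes were higher and 16.8% lower.

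MKI67, the proliferation marker Ki-67, was at 48.1, 49.6 and 54.9 CPM in N-Mac. Its mean was 61.4 CPM in N-Nme, 6.04 in N-Omt, 39.3 in N-Tri, 124.6 in CKI and 331 in untreated cells. N-Mac thus lay between N-Nme and N-Tri, and far above N-Omt. TOP2A, a topoisomerase of dividing cells, differed by -0.42 against N-Nme and 2.72 against N-Omt on the log2 scale, and was not DE against N-Tri at -0.095 (95% interval -0.24 to 0.052). RRM2, a subunit of ribonucleotide reductase, was higher than in N-Omt and was not DE against N-Nme at 0.033 (95% interval -0.13 to 0.20).

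**Figure D2:**
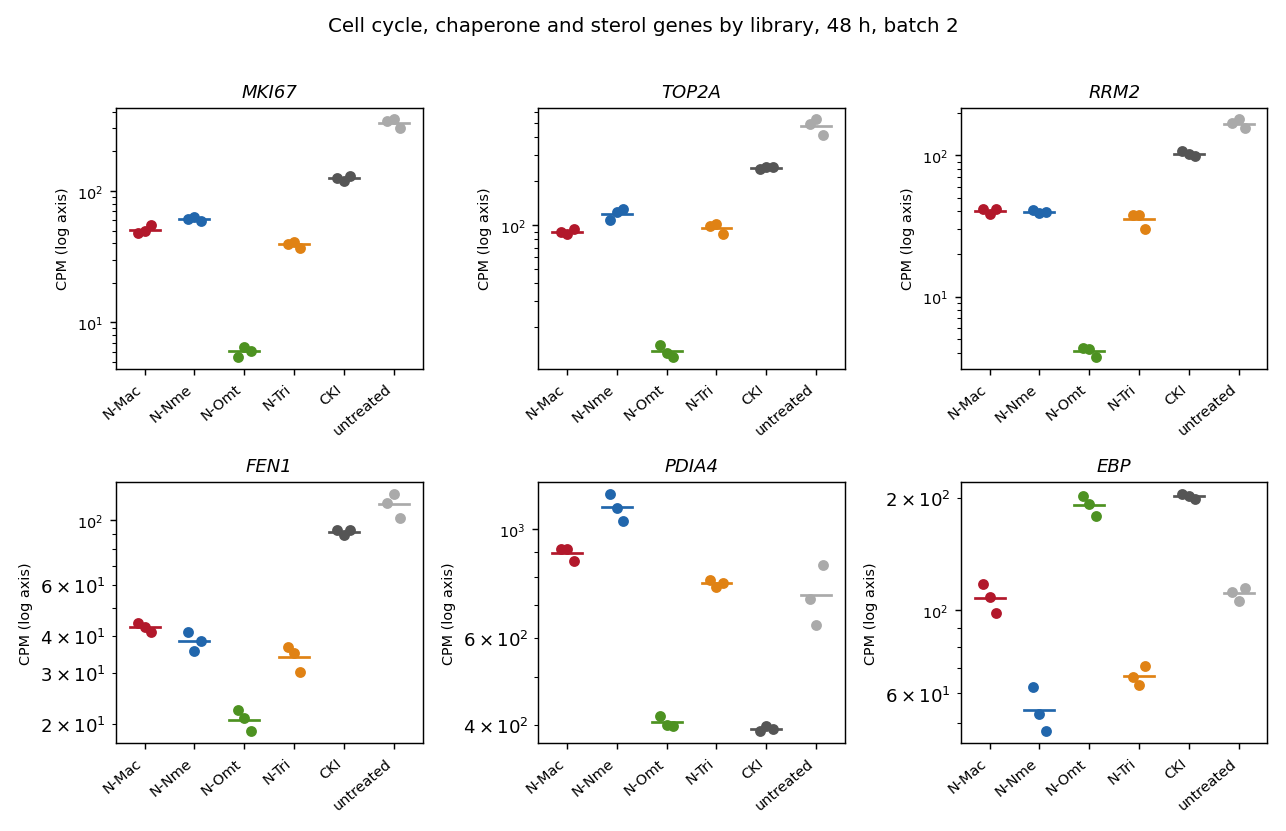
CPM on a log axis for MKI67, TOP2A, RRM2, FEN1, the chaperone gene PDIA4 and the sterol synthesis gene EBP in each library of the 4 single-removal mixtures, CKI and untreated cells at 48 h. Points are libraries and lines are group means. N-Omt is the lowest of the 4 mixtures in the first 5 panels, with a mean of 6.04 CPM for MKI67, and the highest in EBP, with a mean of 191 CPM.

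Without N-Omt among the comparators, 11 of 20 replication genes were higher in N-Mac and 12 of 20 mitosis genes were lower. Over all 14803 genes, 3066 were higher and 2637 lower in that setting. The direction of the mitosis list thus turned when N-Omt was left out. Replication genes that were higher against the mean and all 3 mixtures numbered 5 of 20 (3.58% of all genes). They were MCM3, MCM4, MCM6 and MCM7, subunits of the replicative helicase, and CCNE2, a cyclin of S phase entry, named after their values were seen. All 20 genes of each list were lower in N-Mac than in CKI, where 10485 of 15115 genes were DE (69.4%, with 35.1% higher and 34.3% lower). The other mixtures had 10814 DE genes against CKI in N-Nme (71.5%), 11538 in N-Omt (76.3%) and 10789 in N-Tri (71.4%).

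Genes of glycolysis and hypoxia were mostly higher in N-Mac by small amounts. Against the mean, 15 of 22 were higher and 1 was lower (22.2% and 16.7% of all genes), with a median log2 fold change of 0.19. With the comparators as 1 group 3 were DE, where 525 of all 14803 genes were. ALDOC, an aldolase of glycolysis, was at 33.5, 31.0 and 29.3 CPM in N-Mac and between 12.5 and 19.3 CPM in the others, a log2 fold change of 0.97 ± 0.073 (SE). NDRG1, a stress gene induced by hypoxia, rose by 0.46, the peptide hormone gene ADM by 0.51 and the carbonic anhydrase CA9 by 0.47. ADM was not DE against N-Omt and CA9 was DE only against N-Omt. Of the 22 genes, 5 were higher against every mixture (3.58% of all genes). VEGFA fell by 0.18 on the log2 scale.

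**Figure D3:**
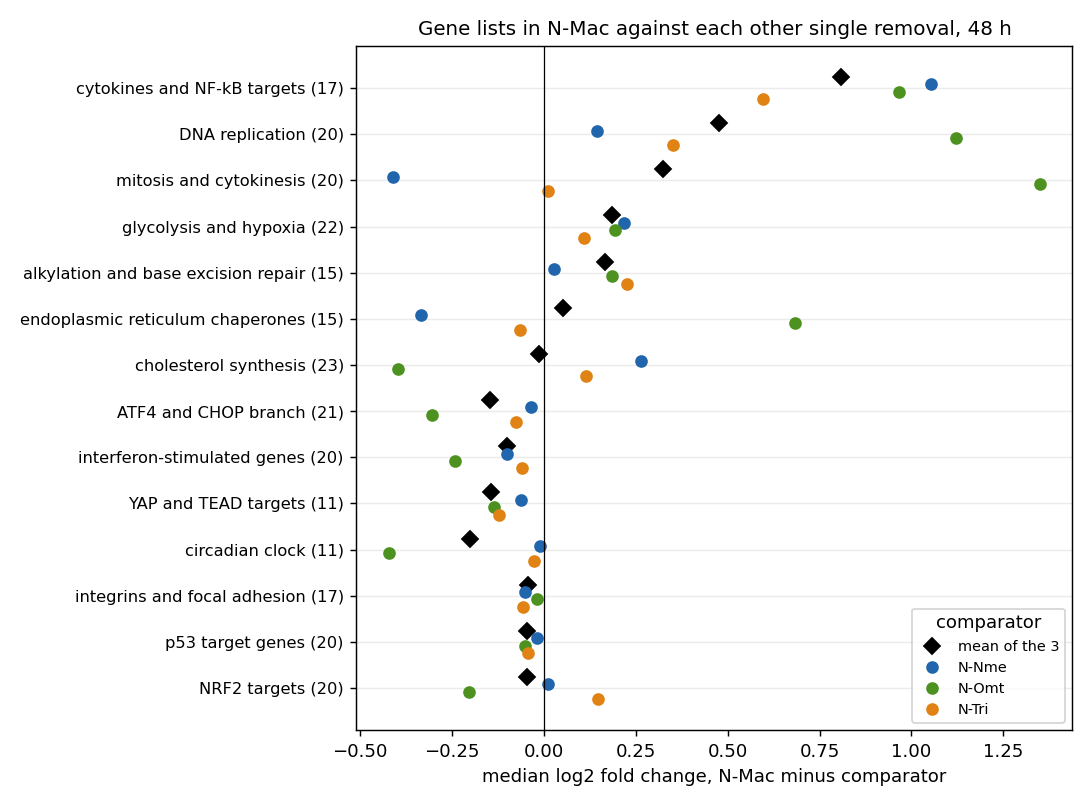
Median log2 fold change (N-Mac minus comparator, horizontal axis) of 14 gene lists, with the number of genes tested in brackets. Black diamonds stand for the mean of the other mixtures and coloured points for N-Nme (blue), N-Omt (green) and N-Tri (orange). The cytokine list lies at 0.81, 1.05, 0.97 and 0.60, all above 0, while the mitosis list lies at -0.41 against N-Nme and 1.35 against N-Omt.

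Other lists also turned with the comparator. Over all genes, 15.9% were higher and 15% lower than in N-Nme, 31.3% and 27.8% than in N-Omt, and 20.6% and 16.8% than in N-Tri. Of 15 endoplasmic reticulum chaperone genes, 15 were lower in N-Mac than in N-Nme, 14 were higher than in N-Omt, and 3 were higher and 5 lower than in N-Tri. Of 23 cholesterol synthesis genes, 16 were higher than in N-Nme, 16 were lower and 3 higher than in N-Omt, and 10 were higher and 2 lower than in N-Tri. The lists for alkylation repair and p53 were included because the aglycone of macrozamin alkylates DNA. Of 15 repair genes tested, 7 were higher and 1 lower against the mean (22.2% and 16.7% of all genes), with FEN1 and XRCC1, which act late in base excision repair, higher by 0.52 and 0.44, PARP1 by 0.42, and the alkyladenine glycosylase MPG, which fell by 0.41. Of the 15, 2 were higher and 2 lower against N-Nme, 8 and 4 against N-Omt and 10 and 1 against N-Tri. FEN1 was higher by 1.05 against N-Omt and was not DE against N-Nme at 0.16 (adjusted p = 0.087, edgeR), and MGMT had too few counts for a test. Of 20 p53 targets, 3 were higher and 5 lower (median -0.05).

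Members of other lists were also DE. The metallothionein MT1X was at 351, 294 and 205 CPM in N-Mac and at most 191 CPM in the others, a log2 fold change of 0.94 ± 0.084 (SE). CEMIP, which degrades hyaluronan, rose by 0.97 and PLAU, the urokinase activator, by 0.44, each against every mixture. EGR1, an immediate early transcription factor, rose by 1.03, with overlap between the groups. Among genes of the ATF4 branch of the stress response, 11 of 21 were lower and 4 higher (16.7% and 22.2% of all genes). Lower genes numbered 8 against N-Nme, 14 against N-Omt and 5 against N-Tri (15%, 27.8% and 16.8% of all genes). The amino acid transporter SLC3A2 fell by 0.58, the serine synthesis enzyme PSAT1 by 0.40 and CHAC1 by 0.35, while DDIT3, which encodes CHOP, rose by 0.52.

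Genes lower in N-Mac included interferon-stimulated genes of the antiviral response. Of the 20 on the list, 9 were lower and 4 higher against the mean (16.7% and 22.2% of all genes). With the comparators as 1 group 4 were DE, where 525 of all 14803 genes were. IFIT1, which binds foreign RNA caps, was at 23.1, 23.1 and 23.3 CPM in N-Mac and between 28.9 and 53.6 CPM in the others, and fell by 0.68 on the log2 scale. IFIT2 was at 45.7, 44.3 and 45.7 CPM in N-Mac and between 63.2 and 83.6 CPM in the others, and fell by 0.69. IFI44 fell by 0.71, and IFIT3 and ISG15, an antiviral ubiquitin-like protein, by 0.41 and 0.46. These 5 were lower against every mixture (3.36% of all genes) and without overlap (4.52% of all genes). BST2 was the member higher against every mixture, by 0.34. IFITM1 was higher by 0.85 against N-Nme and 0.88 against N-Tri, and lower by 0.24 against N-Omt.

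The largest consistent falls outside that list were of diverse genes. MIR663A, the host row of a microRNA hairpin and not the mature microRNA, fell by 1.19 ± 0.167 (SE), at 10.2, 17.4 and 25.2 CPM in N-Mac against a range from 26.7 to 66.1 CPM. LRFN4, a synaptic adhesion molecule, was at 29.7, 32.0 and 32.4 CPM in N-Mac and between 40.7 and 105.7 CPM in the others, a fall of 1.00 ± 0.063 (SE). The tendon transcription factor gene SCX fell by 0.87, IER5L by 0.77, RHBDL1 by 0.73, the calpain gene CAPN15 by 0.72, FBRSL1 by 0.70, LOC100130027 by 0.69 and CBARP by 0.68. RHBDL1 and LOC100130027 overlapped between the groups, and the other 10 of the 12 named falls did not (4.52% of all genes). The falls were picked for being lower against every mixture, which favours this.

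The 12 named falls had a median GC content of 68.3% over the 11 with a value, against 48.5% over all genes tested and 50.3% over the named rises. IFIT1, IFIT2 and IFI44 were the exceptions, at 42.2%, 42.8% and 39.1%. Over all 498 genes consistently lower in N-Mac the median was 60% (489 with a value), and over the 530 consistently higher it was 51.5% (511 with a value). With a trend in GC content removed from each library, all 24 named rises and falls were still DE, but 6 falls became smaller by more than 1.5 times. The log2 fold change was then -0.23 for CBARP, -0.36 for FBRSL1, -0.38 for CAPN15, -0.47 for RHBDL1, -0.51 for SCX and -0.60 for MIR663A. The 3 interferon genes kept values of -0.68 (IFIT1), -0.70 (IFIT2) and -0.68 (IFI44).

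**Figure D4:**
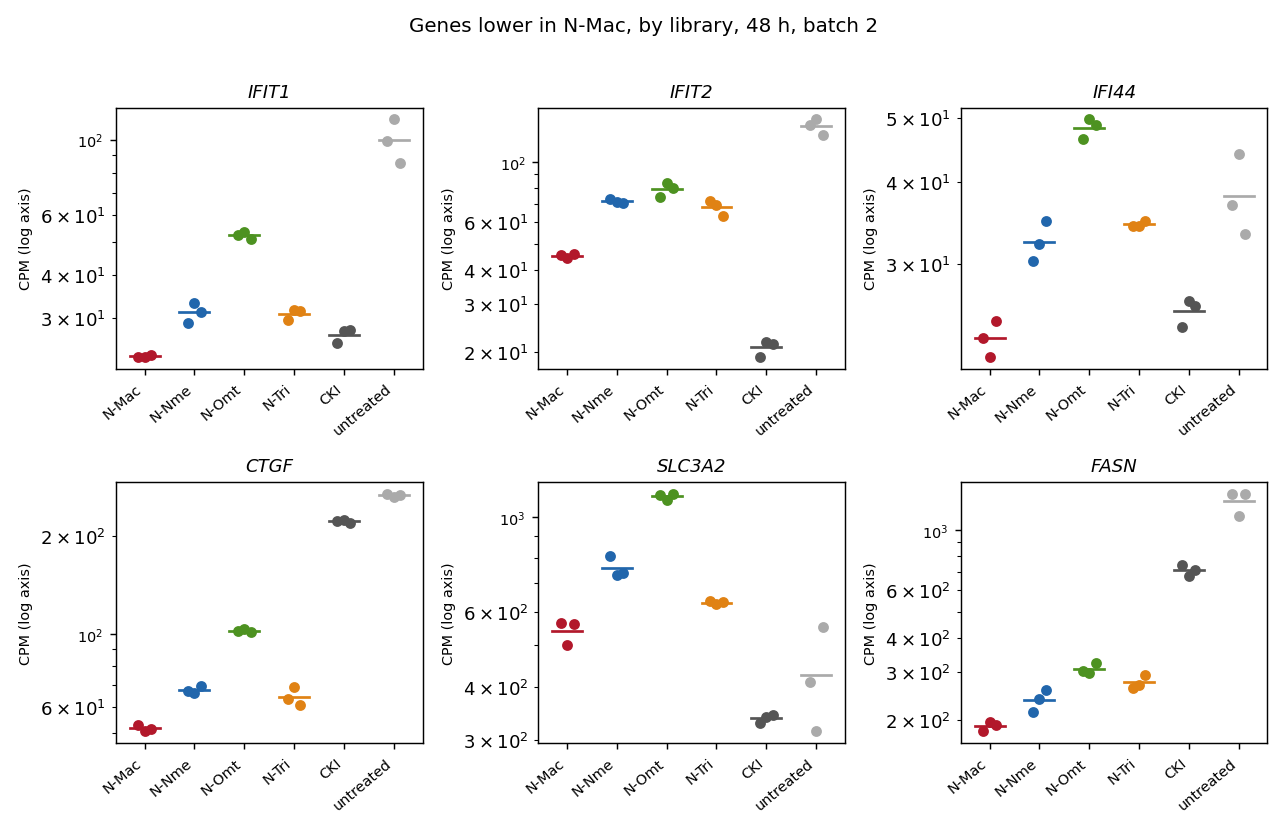
CPM on a log axis for IFIT1, IFIT2, IFI44, CTGF, SLC3A2 and FASN in each library of the 4 single-removal mixtures, CKI and untreated cells at 48 h. Points are libraries and lines are group means. N-Mac is the lowest of the 4 mixtures in each panel, and its 3 libraries of IFIT1 sit between 23.1 and 23.3 CPM, below all 9 libraries of the other mixtures.

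The study named 14 migration core genes, of which 13 were tested and ESR1 was too low. Against the mean, 2 of the 13 were higher and 3 lower (22.2% and 16.7% of all genes). The kinase CDK4 was among those higher, by 0.13, and cyclin D1 (CCND1) and PIK3CA were among those that fell, by 0.26 and 0.33. CCND1 was at 194.1, 191.1 and 196.8 CPM in N-Mac and between 216.5 and 248 CPM in the others, and it and PIK3CA were lower against every mixture. The study drew these genes from the response of MDA-MB-231 cells to CKI, and whether the mixtures compared here entered that choice is not given in the sources used here.

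Mixtures of batch 1, which the comparison above did not use, included pairs that differed by macrozamin alone. N-Mac and each of its comparators above differed by macrozamin and by the compound that the comparator lacked. N-MacOmtOspc, CKI without macrozamin, oxymatrine and oxysophocarpine, was set against N-OmtOspc, which kept macrozamin. OmtOspc, the 2 alkaloids alone, was set against MacOmtOspc, the same with macrozamin. Each group had 3 libraries at 48 h, and values are given as macrozamin absent minus present. In the first pair 7505 of 15294 genes were DE (49.1%), and in the second 146 (0.955%). The 2 contrasts differed from each other in 4946 genes (32.3%). N-MacOmtOspc replicate 2 stood apart, with a chi-square per gene of 48.8 and 64.3 against its other replicates, where the other pairs of replicates had values between 2.05 and 15.6.

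Cytokine genes were higher without macrozamin in the first pair. Of the 17 genes, 16 were higher (26% of all genes) and IL11 was lower, by 0.34, with a median log2 fold change of 1.20, and without replicate 2 the counts were again 16 and 1. CXCL8 was at 611, 474 and 620 CPM in N-MacOmtOspc and at 69.1, 122.7 and 130.5 CPM in N-OmtOspc, a log2 fold change of 2.42. In OmtOspc it was at 187, 202 and 180.0 CPM and in MacOmtOspc at 181, 164 and 179.7 CPM, a log2 fold change of 0.12 with a 95% interval from -0.27 to 0.51. The difference between the 2 contrasts was 2.30 (adjusted p = 1.02e-05, edgeR), with the larger value in the pair that held the other CKI components. In the second pair, where 0.32% of all genes were higher, so were IL1A and TNFAIP3, by 0.68 and 0.45, and the other 15 genes were not DE.

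Of the 12 named rises, 9 were higher in the first batch 1 pair, RAD54L (-0.95) and CGN (-0.51) were lower, and MB was not DE at 0.39. Of the 12 named falls, 7 were lower and 5 were not DE. Without replicate 2, CAPN15 was lower as well, which made 8, and 8516 of 15581 genes were DE (54.7%). In the second pair none of the 24 was DE by edgeR, where 0.955% of all genes were. Some intervals were wide, as for CSF3 with a 95% interval from -0.93 to 0.79. Over the 530 genes consistently higher in N-Mac, of which 526 were tested, 36.3% were higher and 19.4% lower in the first pair. Over the 498 consistently lower genes, 29.7% were lower and 23.5% higher, against 23.1% lower and 26% higher among all genes. No GC correction was run in batch 1, so the part of GC content in these shares was not tested. The log2 fold changes of N-Mac against the mean and of the first pair had a Pearson correlation of 0.107 across 14570 genes, which are not independent replicates.

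The cell cycle lists had more lower than higher genes without macrozamin in both pairs of batch 1. In the first pair, where 26% of all genes were higher and 23.1% lower, 11 of 20 replication genes were lower and 2 higher. Of 20 mitosis genes, 18 were lower. Without replicate 2, 11 replication genes were lower and 2 higher, and 18 mitosis genes were lower and 0 higher. In the second pair 8 replication and 6 mitosis genes of 20 each were lower (0.634% of all genes), none was higher and the rest were not DE. The glycolysis and hypoxia list had 4 of 22 genes higher and 7 lower in the first pair (26% and 23.1% of all genes). ALDOC fell by 0.67 there. The interferon list had 5 higher and 8 lower of the 19 tested there (26% and 23.1% of all genes), and IFIT1 fell by 0.49.

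**Figure D5:**
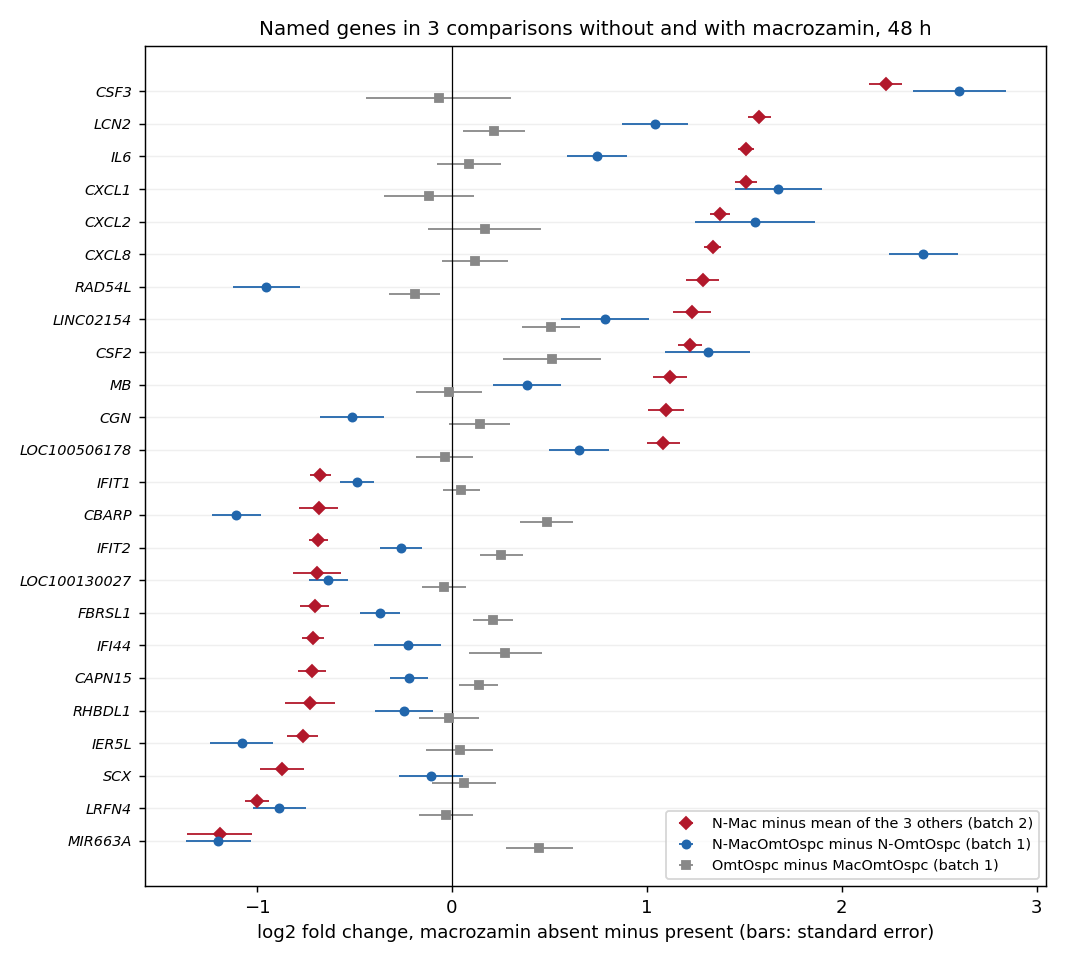
Log2 fold changes of the 24 named rises and falls for macrozamin absent minus present in the 2 pairs of batch 1 mixtures, beside those of N-Mac against the mean of the other single removals. Bars are standard errors. CXCL8 is at 1.34 in batch 2, at 2.42 in N-MacOmtOspc against N-OmtOspc and at 0.12 in OmtOspc against MacOmtOspc.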

How the data were processed

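RNA-seq was carried out by the authors on oligo(dT)-selected, strand-specific libraries with paired-end reads. Per the labels and the submitters' processing notes, FastQC 0.11.4, Trim Galore 0.3.7, STAR 2.5.3a, Subread 1.5.2 (featureCounts), edgeR 3.22.3 and the hg19 build were used. The annotation release and the strand setting of the counting are not given in the sources used here. The deposited values are raw counts per gene and library, without normalization, for 27978 genes. No row lacked a gene name.

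The 12 single-removal libraries were analysed with edgeR 4.0.16 in R 4.3.3. Genes were filtered with filterByExpr, libraries were scaled by TMM, and a model with 1 mean per group was fitted with glmQLFit. N-Mac was tested with glmQLFTest against the unweighted mean of N-Nme, N-Omt and N-Tri and against each of them, and against CKI in a fit of 18 libraries. The batch 1 mixtures were fitted apart. DE genes had a Benjamini-Hochberg adjusted p-value under 0.05 over all genes tested. CPM values were TMM-scaled over the 18 libraries of a batch at 48 h. The SE of a log2 fold change is its size divided by the square root of the F statistic. Intervals of log2 fold changes are 95% intervals from the SE with the 8 residual degrees of freedom of the 12 libraries. The fit was tested on simulated data for 4 comparisons: N-Mac against the mean, N-Tri and CKI, and N-MacOmtOspc against N-OmtOspc. The other comparisons use the same code and were not simulated.

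Named genes were the 12 largest rises and 12 largest falls at a mean level of 5 CPM or more, called against the mean and, in the same direction, against each of the 3 groups, up to 4 called members of each list with that CPM, the study's 14 migration genes and the marker genes. The remaining cytokine genes, IFIT3, ISG15, BST2, VEGFA, CCNE2 and the MCM genes were named after their values were seen. The members and the 39 lists were chosen with earlier results of these data known. Alternatives were RLE factors, library sizes, other filters, DESeq2 1.42.0, other comparator models, a replicate block, a GC correction and leaving out each library. Leaving out N-Omt, the GC correction, leaving out N-MacOmtOspc replicate 2 from the gene counts of batch 1 and the adjustment over the 3 pairs together were chosen after seeing the data. Promoter sequences are from RefSeq (GRCh38.p14). GC content was taken from the longest GENCODE 29 transcript. Depth is given with the results. Results of some genes are not reported here.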

Additional observations from a re-analysis of the deposited data

Results flagged for a closer look

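The response to macrozamin removal differed between the 2 pairs of batch 1 mixtures in 17 of the 24 named rises and falls, by the interaction test of edgeR with adjustment over all 15294 genes, where 32.3% of all genes differed. Values are N-MacOmtOspc minus N-OmtOspc, less OmtOspc minus MacOmtOspc, on the log2 scale.

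Among the named rises the difference was 2.67 for CSF3, 2.30 for CXCL8, 1.79 for CXCL1, 1.39 for CXCL2, 0.83 for LCN2, 0.69 for LOC100506178 and 0.66 for IL6. It was -0.76 for RAD54L and -0.65 for CGN. Among the named falls it was -1.65 for MIR663A, -1.59 for CBARP, -1.12 for IER5L, -0.86 for LRFN4, -0.59 for LOC100130027, -0.58 for FBRSL1, -0.53 for IFIT1 and -0.51 for IFIT2. The adjusted p-values were between 1.02e-05 for CXCL8 and 0.0379 for CGN (edgeR). Without N-MacOmtOspc replicate 2 the number of named genes that differed was 19, and the number over all genes rose with it, from 4946 of 15294 to 6654 of 15581. IFIT2, at -0.26 in the first pair and 0.25 in the second, differed between the pairs without being DE in either.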

How the results depend on the processing

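The number of DE genes against the mean was 5763, and between 5204 and 5921 with RLE factors, library sizes alone, other filters, DESeq2, all 18 libraries, a GC correction or without N-Omt. With the 9 comparator libraries as 1 group, 525 genes were DE, since differences among the mixtures then entered the spread, and the lists had 9 cytokine, 2 replication, 0 mitosis, 4 interferon and 3 glycolysis genes. Under that setting RAD54L (adjusted p = 0.324), IFIT1, LRFN4, LOC100130027 and RHBDL1 were no longer DE, and the other 19 named rises and falls were. With a fold of at least 2 required, the numbers were 181 against the mean, 225 against N-Nme, 1208 against N-Omt, 157 against N-Tri and 2327 against CKI, and 7, 4, 1, 0 and 0 genes of the lists. Without N-Omt, 11 replication genes were higher and 12 mitosis genes were lower, of 20 each, where 3066 of 14803 genes were higher and 2637 lower. The log2 fold changes that changed sign were then CDK1 -0.059, CTSL 0.071, HERPUD1 -0.090, HSPA1A -0.24, HSPA1B -0.24, MANF -0.22, MMP1 -0.15, MT1E -0.063, MYLIP 0.037, NOP56 0.073, NQO1 0.0029, PDIA4 -0.051, PDIA6 -0.037 and TOP2A -0.26. By DESeq2, 1 named gene, CBARP, was DE in OmtOspc against MacOmtOspc (0.48, adjusted p = 0.0424).

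Leaving out each library gave 4275 to 6417 DE genes against the mean, 3259 to 5336 against N-Nme, 8003 to 8312 against N-Omt, 4246 to 5359 against N-Tri and 9941 to 10088 against CKI. Named genes numbered 16 to 20 in the first batch 1 pair and 0 in the second. The replicate block gave 6062, 4944, 8940, 5779 and 10553 DE genes. Same-numbered libraries correlated between -0.154 and 0.271 over 18 pairs, and 6 of 12 libraries correlated best with their own number, so the numbers were not taken as pairs. Over 149 named genes, 3027 of 3277 recomputed values kept direction and call, 236 lost the call and 14 changed sign. These were unevenly spread over the settings. With the 9 comparator libraries as 1 group, 111 of the 149 genes lost the call. Without N-Omt, 24 lost the call and 14 changed sign. Precision was lowest for MIR663A among the named rises and falls, with an SE of 0.167.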

Other observations

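Other gene lists were counted in N-Mac against the mean of the other mixtures, where 22.2% of all genes were higher and 16.7% lower. Respiratory chain subunits were higher in 7 of 18 genes and lower in none, and ribosomal proteins were higher in 8 of 20 and lower in 2, with median log2 fold changes of 0.11 and 0.09. Genes of ribosome biogenesis were higher in 3 of 15 and lower in 7. Circadian clock genes were higher in 2 of 11 and lower in 7, integrins and focal adhesion genes in 1 and 8 of 17, YAP and TEAD targets in 3 and 7 of 11, and lysosome genes in 1 and 5 of 14. CTGF, a matricellular protein and YAP target, fell by 0.57, and was at 52.8, 50.5 and 51.4 CPM in N-Mac and between 60.6 and 103.4 CPM in the others.

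Fatty acid synthesis genes were higher in 1 of 9 and lower in 3. FASN, the fatty acid synthase, was at 182.1, 197.3 and 191.4 CPM in N-Mac and between 214.6 and 325 CPM in the others, and fell by 0.51. SREBF1, a regulator of lipid synthesis, fell by 0.46. CYP1A1, a target of the aryl hydrocarbon receptor, was higher by 0.67 against the mean at a mean of 10.04 CPM, with 73.0 CPM in CKI, and was not DE against N-Omt.

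The remaining lists had members both higher and lower: NRF2 targets 4 and 5 of 20, heat shock chaperones 2 and 3 of 11, actin and SRF genes 6 and 8 of 20, TGF-beta genes 3 and 4 of 13, matrix proteases 5 and 5 of 15, BCL2 family genes 3 and 4 of 11, ERK feedback genes 2 and 4 of 11, immediate early genes 3 and 2 of 14, PPAR targets 4 and 1 of 8, metallothioneins 2 and 1 of 5, cadherins and EMT regulators 1 and 2 of 9, aryl hydrocarbon receptor targets 1 and 2 of 6 and liver X receptor targets 2 and 1 of 6. ABC efflux transporters had 1 of 6 lower and the EGFR family 1 of 8 higher. Luminal markers were lower in 3 of 7 and endothelial markers higher in 1 of 3.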
